A study of Mus musculus with 20 samples.

Results

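Transcripts of 10 genes that make or use NAD were followed in the neonatal mouse heart: Nmrk1, Nmrk2, Nampt, Nmnat1, Nmnat3 and Naprt, which make it, and Sirt1, Sirt3, Parp1 and Cd38, which use it. The genes were chosen by symbol, with earlier results of these data known. All 10 were among the 55367 genes counted and among the 16598 that passed the filter on low counts. Dissected left atria and left ventricles were taken on postnatal day 4 from pups of the C57BL/6J strain, and their polyadenylated RNA was sequenced. The 4 groups were left atria after hyperoxia (100% oxygen from birth), left atria in room air (21% oxygen), left ventricles after hyperoxia and left ventricles in room air, with 5 libraries each. The labels give 5 individual mice per group, nursed by dams that were exchanged between the gases each day, and do not give the sex of the pups or say whether an atrium and a ventricle with the same number came from the same mouse. The tissue was a whole chamber, so in every comparison fewer cells of a type and less RNA per cell cannot be told apart.

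NAD is the electron carrier of glycolysis, the citric acid cycle and the respiratory chain, and it is also broken down as a substrate by enzymes that release nicotinamide from it. Nampt returns that nicotinamide to nicotinamide mononucleotide, the nicotinamide riboside kinases Nmrk1 and Nmrk2 reach the same intermediate from nicotinamide riboside, and Nmnat1, in the nucleus, and Nmnat3, in mitochondria, join AMP to it to give NAD. Naprt starts a parallel route from nicotinic acid. Sirt1 and Sirt3 are NAD-dependent deacylases of the nucleus and of mitochondria, Parp1 attaches ADP-ribose chains to proteins at DNA breaks, and Cd38 splits NAD at the cell surface and within cells. Nmrk2 is known as the kinase of skeletal and heart muscle, where Nampt is otherwise the main salvage enzyme, and it is known to rise in failing mouse hearts.

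Promoter windows of 300 bases, from 250 before to 50 after a RefSeq transcription start (GRCm38.p6), were at hand for 9 of the 10 genes. Those of the kinase pair are shown because both enzymes carry out the same step and Nmrk2 passed in the atrium while Nmrk1 did not, and that of Parp1 because its transcript moved in opposite directions in the chambers. Each is written 5′ to 3′ on the strand of its gene. Capitals mark matches to 3 motifs, searched on both strands. The TATA box was searched as TATAAA. The E-box was searched as CACGTG. The antioxidant response element was searched as TGACNNNGC.
Nmrk2 (chr10:81201988-81202287, minus strand): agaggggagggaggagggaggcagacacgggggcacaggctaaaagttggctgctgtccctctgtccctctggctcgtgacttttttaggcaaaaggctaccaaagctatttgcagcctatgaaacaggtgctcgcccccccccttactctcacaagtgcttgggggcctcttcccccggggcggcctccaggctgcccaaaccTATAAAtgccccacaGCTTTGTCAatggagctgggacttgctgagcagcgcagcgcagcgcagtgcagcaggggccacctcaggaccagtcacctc
Nmrk1 (chr19:18631766-18632065, plus strand): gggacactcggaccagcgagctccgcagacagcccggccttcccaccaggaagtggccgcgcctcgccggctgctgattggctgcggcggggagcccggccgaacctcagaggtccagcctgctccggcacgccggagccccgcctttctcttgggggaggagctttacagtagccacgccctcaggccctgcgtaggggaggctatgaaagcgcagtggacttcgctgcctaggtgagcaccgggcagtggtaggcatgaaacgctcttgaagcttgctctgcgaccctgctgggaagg
Parp1 (chr1:180568641-180568940, plus strand): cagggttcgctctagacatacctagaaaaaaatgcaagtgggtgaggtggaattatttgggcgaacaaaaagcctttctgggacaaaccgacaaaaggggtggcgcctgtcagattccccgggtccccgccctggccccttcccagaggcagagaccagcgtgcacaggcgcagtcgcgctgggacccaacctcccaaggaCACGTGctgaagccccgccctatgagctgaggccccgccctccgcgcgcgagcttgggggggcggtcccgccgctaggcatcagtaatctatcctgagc

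The Nmrk2 window held a TATA box at position -46 from the start and a match to the antioxidant response element at -31. The Nmrk1 window held no match to any motif searched, and the Parp1 window held an E-box at -49. Among all 32851 windows of the same length, 13.6% held TATAAA, 12.4% TGACNNNGC and 7.15% CACGTG. The other motifs searched were TGATGNAAN (amino acid response element, 3.95% of windows), TGANTCA (AP-1 site, 7.81%) and GGAATG (M-CAT element, 14.7%), and none of the windows of the 9 genes held them. TGACNNNGC was also matched in the windows of Nmnat3, Sirt1 and Sirt3, and CACGTG in that of Sirt1. The kinase windows also differed in base composition, with 8 CpG dinucleotides in that of Nmrk2 and 23 in that of Nmrk1, against a median of 7 over all windows. A match describes the letters of a window and was not tested as a binding site.

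Values are CPM (counts of a gene scaled to a fixed library size, with TMM factors), as mean ± SD over 5 libraries unless single libraries are given. Levels of different genes are compared only as CPM per kilobase of annotated exon. Differences are log2 values with their standard error (SE), and a gene passed where the quasi-likelihood F-test of edgeR gave a Benjamini-Hochberg adjusted p under 0.05 over all 16598 genes. Overlap of values between groups was checked for the NAD genes only, so no share of all genes stands beside it. Total counts were 26510081 to 38244117 per library. Markers of ventricular cardiomyocytes summed to 389 to 918 CPM in the atria and 20660 to 41473 CPM in the ventricles. Atrial markers summed to 18031 to 50347 CPM in the atria and 261 to 1986 CPM in the ventricles, so chamber labels and markers went together. Other measures also differed between libraries. All 10 room-air libraries had more Y-linked than Xist reads, as did hyperoxic atrium 2 and hyperoxic ventricles 2 and 6, and the other 7 hyperoxic libraries had fewer. Libraries also differed in a slope on exon length, fitted to each library's log2 deviations from the mean of its chamber over both gases. A value below 0 means more reads from short transcripts than in that mean, so atria and ventricles have separate zero points. Among atria it was lowest in hyperoxic atria 2 (-0.295) and 4 (-0.290), and among ventricles in ventricle 4 of room air (-0.225). It ran from -0.070 to 0.136 in the other 17 libraries.

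The first comparison asked how hyperoxia in the first days of life changed these transcripts in the left atrium. Nmrk2 rose 128-fold, Nmnat3, Sirt3 and Cd38 rose by smaller amounts, and Parp1 fell. Nmrk1, Nampt, Nmnat1, Naprt and Sirt1 did not pass. Thus 5 of 10 members passed, 4 higher and 1 lower, where 43.9% of all tested genes passed (19.7% higher and 24.2% lower), so the share of members passing was near that of all genes. The median log2 difference of the members was 0.19, and that of all tested genes was -0.06.

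Nmrk2, the muscle nicotinamide riboside kinase (chr10:81198170-81202051, minus strand), stood at 604, 1227, 860.2, 1147 and 526 CPM in hyperoxic atria 1 to 5, against 14.0, 3.06, 8.02, 6.03 and 3.06 CPM in room-air atria 1 to 5. Every hyperoxic atrium was above every room-air atrium. The means were 873 ± 314 CPM after hyperoxia and 6.83 ± 4.51 CPM in room air (SD, n = 5 each), a log2 difference of 7.001 (SE 0.73, 95% interval 5.46 to 8.54, edgeR adjusted p = 6.5e-07). Among all 16598 differences this was at the 99.98th percentile. By level per kilobase, Nmrk2 ranked 85 of 16330 genes with an annotated length in hyperoxic atria and 8028 in room-air atria.

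**Figure D1:**
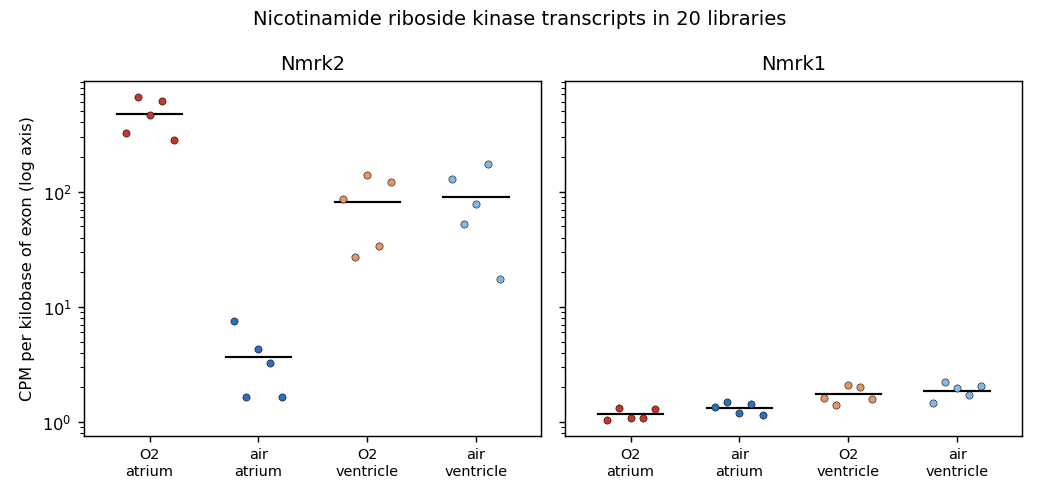
Level of the nicotinamide riboside kinases in 20 libraries, in CPM per kilobase of exon on a log axis, with 1 point per library and a bar at each group mean (O2, 100% oxygen; air, 21% oxygen). Nmrk2 averaged 471 in hyperoxic atria and 3.68 in room-air atria, and Nmrk1 stayed between 1.05 and 2.21 in every library.

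Within the hyperoxic atria Nmrk2 was highest in libraries 2 and 4, which also had the lowest length slopes, and within the room-air atria it was highest in library 1, where Myl2, a ventricular myosin light chain, stood at 328 CPM while the remaining room-air atria had 7.42 to 14.95 CPM. Hyperoxic atria 2 and 4 also held more of the atrial light chain Myl7, at 11369.5 and 10218.5 CPM, while hyperoxic atria 1, 3 and 5 had 4325 to 5463 CPM. Without the 3 libraries of low slope the Nmrk2 difference was 6.61 (SE 0.76), and without room-air atrium 1 it was 7.43. Within the libraries that had more Y-linked than Xist reads, where hyperoxic atrium 2 was the only hyperoxic one, it was 7.49 (SE 1.002). Skeletal muscle markers, which belong to the other tissue known for Nmrk2, summed to 40.7 to 55.6 CPM in hyperoxic atria and 75.3 to 87.0 CPM in room-air atria, with 1 of 6 tested markers higher and 1 lower. Of 5 markers of ventricular cardiomyocytes, 4 were lower in hyperoxic atria and none was higher. An antisense gene, Atcayos, shares 270 exonic bases with Nmrk2, and whether the authors counted by strand is not given in the sources used here. Atcayos averaged 52.5 ± 11.6 CPM in hyperoxic atria and 139 ± 12.7 CPM in room-air atria, the opposite direction to Nmrk2.

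The ubiquitous kinase Nmrk1 (chr19:18631950-18652428, plus strand) had 3.87 to 4.87 CPM in hyperoxic atria and 4.25 to 5.46 CPM in room-air atria. The ranges overlapped, and its log2 difference was -0.18 (95% interval -0.48 to 0.11, edgeR adjusted p = 0.31). Per kilobase, Nmrk2 made up 99.7 ± 0.116% of the 2 kinases together in hyperoxic atria and 68.8 ± 13.2% in room-air atria, where the share ran from 52.7% to 84.8%. The ratio of Nmrk2 to Nampt, the other entry into nicotinamide mononucleotide, was 52.4 ± 21.2 in hyperoxic atria and 0.478 ± 0.355 in room-air atria.

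Nmnat3, the mitochondrial enzyme of the last step (chr9:98287435-98420438, plus strand), stood at 9.01, 14.0, 10.9, 11.8 and 10.9 CPM in hyperoxic atria 1 to 5 and at 6.06, 6.92, 7.40, 8.53 and 5.34 CPM in room-air atria 1 to 5. The groups did not overlap, although hyperoxic atrium 1 and room-air atrium 4 lay close. Nmnat3 rose by 0.72 on the log2 scale (SE 0.14, edgeR adjusted p = 0.00037), and it passed under all 34 alternatives tried. Nmnat1, the nuclear enzyme (chr4:149467572-149485202, minus strand), had 13.4 to 16.9 CPM in hyperoxic atria and 11.8 to 13.9 CPM in room-air atria, with a difference of 0.21 (SE 0.09) that missed the threshold (edgeR adjusted p = 0.055). Per kilobase Nmnat1 made up 68.8 ± 1.72% of the pair in hyperoxic atria and 75.9 ± 2.55% in room-air atria. These shares depend on the exon length assigned to Nmnat3, which is 5004 bases over all annotated exons and 2166 in its longest transcript.

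Sirt3, the main deacetylase of mitochondria (chr7:140863666-140882309, minus strand), stood at 31.2, 40.2, 32.4, 38.7 and 31.6 CPM in hyperoxic atria 1 to 5 and at 26.4, 23.5, 27.98, 27.4 and 22.2 CPM in room-air atria 1 to 5. The groups did not overlap, and the highest values were again those of libraries 2 and 4. Sirt3 rose by 0.45 (SE 0.10, edgeR adjusted p = 0.00096). It shares 342 exonic bases with Psmd13 and 418 with Ric8a on the other strand. Psmd13 averaged 125 ± 31.8 CPM in hyperoxic atria and 97.2 ± 8.12 CPM in room-air atria, and the part of shared bases in the Sirt3 difference was not tested. Sirt1, the nuclear sirtuin (chr10:63319005-63381704, minus strand), had 14.2 to 22.9 CPM in hyperoxic atria and 15.6 to 20.5 CPM in room-air atria, and its difference of 0.13 (95% interval -0.18 to 0.45) did not pass. Without the 3 libraries of low length slope it was 0.32 and passed (edgeR adjusted p = 0.028).

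Cd38, the NAD glycohydrolase (chr5:43868553-43912375, plus strand), stood at 11.9, 10.4, 9.87, 10.8 and 12.3 CPM in hyperoxic atria 1 to 5 and at 9.07, 8.76, 8.91, 6.75 and 8.61 CPM in room-air atria 1 to 5. Each hyperoxic atrium was above each room-air atrium, and the difference was 0.39 (SE 0.10, edgeR adjusted p = 0.0020). With the balance of Y-linked and Xist reads as a covariate it was 0.24 and no longer passed (edgeR adjusted p = 0.26). Cd38 is known in macrophages and endothelium as well as in muscle. Macrophage markers summed to 128 to 201 CPM in hyperoxic atria and 94.6 to 107 CPM in room-air atria, with 4 of 5 higher, and endothelial markers to 495 to 726 CPM and 838 to 1006 CPM, with 6 of 6 lower. Fibroblast markers summed to 1507 to 2099 CPM in hyperoxic atria and 2940 to 3664 CPM in room-air atria, with 4 of 5 lower and 1 higher. No marker of these 3 lists was at 0 in a group, and the part of cell makeup in the members' differences was not tested.

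Parp1, the main poly(ADP-ribose) polymerase (chr1:180568924-180601254, plus strand), stood at 77.6, 66.3, 78.3, 60.2 and 73.8 CPM in hyperoxic atria 1 to 5 and at 86.6, 81.7, 84.9, 81.1 and 81.2 CPM in room-air atria 1 to 5. All hyperoxic atria were below all room-air atria, with the lowest values in libraries 2 and 4. Parp1 fell by 0.22 on the log2 scale (SE 0.08, edgeR adjusted p = 0.021). Without the 3 libraries of low length slope the difference was -0.12 and did not pass (edgeR adjusted p = 0.19). It was lost in 11 of the 34 alternatives (-0.33 to -0.08 over all), among them those without hyperoxic atrium 2, hyperoxic atrium 4, hyperoxic ventricle 5 or room-air atrium 1. In a model that held the length slope it was -0.13 and did not pass (edgeR adjusted p = 0.16).

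Nampt (chr12:32819545-32853349, plus strand) had 40.6 to 56.1 CPM in hyperoxic atria and 36.2 to 53.0 CPM in room-air atria, a difference of 0.17 (95% interval -0.04 to 0.39) that did not pass. Naprt (chr15:75890956-75894481, minus strand) had 6.67 to 10.6 CPM in hyperoxic atria and 6.18 to 9.61 CPM in room-air atria, with a difference of 0.14 (95% interval -0.23 to 0.50). Naprt shares 277 exonic bases with Eef1d on its own strand, so reads there could be assigned to either gene, and Eef1d averaged 317 ± 118 CPM in hyperoxic atria and 160 ± 18.8 CPM in room-air atria.

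**Figure D2:**
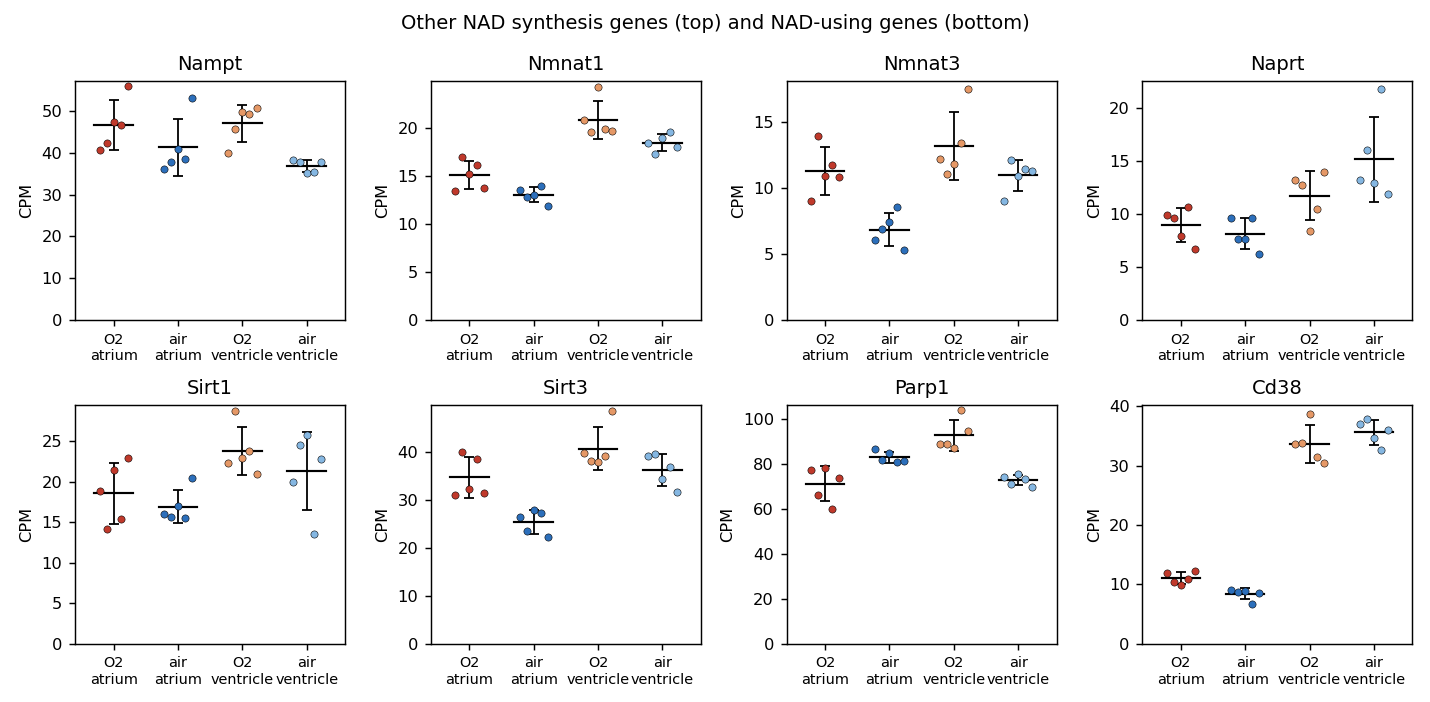
CPM of 8 members by group, with 1 point per library and the mean ± SD (n = 5), each panel on its own scale from 0 (O2, 100% oxygen; air, 21% oxygen). In the atria the groups of Nmnat3, Sirt3, Parp1 and Cd38 do not overlap, and in the ventricles those of Nampt and Parp1 do not. Overlap was not counted over all genes.

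The same question was asked in the left ventricle. Nampt and Parp1 rose, no member fell, and Nmrk2 did not pass. These 2 of 10 members stand beside 10.9% of all tested genes that passed (5.64% higher and 5.28% lower). The median log2 difference of the members was 0.16, and that of all tested genes -0.01.

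Parp1 stood at 89.0, 88.7, 87.0, 104 and 94.9 CPM in hyperoxic ventricles 1, 2, 4, 5 and 6 and at 74.3, 71.0, 75.4, 73.3 and 69.9 CPM in room-air ventricles 1 to 5. The groups were well apart, and the difference was 0.35 (SE 0.08, edgeR adjusted p = 0.0074). Nampt, the main salvage enzyme, stood at 40.0, 45.6, 49.7, 49.2 and 50.6 CPM in hyperoxic ventricles 1, 2, 4, 5 and 6 and at 38.2, 37.9, 35.2, 35.4 and 37.7 CPM in room-air ventricles 1 to 5. Hyperoxic ventricle 1 was just above the highest room-air ventricle, and the others were clearly higher. Nampt rose by 0.35 (SE 0.10, edgeR adjusted p = 0.035).

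With the balance of Y-linked and Xist reads as a covariate Parp1 stood at 0.32 (edgeR adjusted p = 0.35) and Nampt at 0.24 (edgeR adjusted p = 0.73), and neither passed. Over all 16598 genes 37 passed in the ventricle with that covariate, and 1813 without it. Nampt was lost in 14 of the 34 alternatives, among them the leaving out of hyperoxic ventricle 4, 5 or 6 or of any room-air ventricle (lowest value over all alternatives 0.22), and Parp1 in 4, none of which left out a single library. Endothelial markers summed to 1262 to 1462 CPM in hyperoxic ventricles and 1512 to 1837 CPM in room-air ventricles, with 3 of 6 lower, and the atrial light chain Myl7 ran from 2.66 to 128 CPM in hyperoxic ventricles and from 19.5 to 529.5 CPM in room-air ventricles. With Myl7 as a covariate Nampt (edgeR adjusted p = 0.35) and Parp1 (edgeR adjusted p = 0.16) did not pass. Over all 16598 genes 38 passed as higher and 75 as lower in the ventricle in that fit, against 1813 in either direction without it. The part of the endothelial markers was not tested.

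Nmrk2 stood at 162, 50.04, 259, 62.5 and 227 CPM in hyperoxic ventricles 1, 2, 4, 5 and 6 and at 237, 96.9, 145, 321 and 32.4 CPM in room-air ventricles 1 to 5. The ranges overlapped almost entirely, and within the room-air ventricles the highest library held 9.90 times the lowest. The log2 difference was -0.13 with a 95% interval of -1.31 to 1.05, so the interval included a change of 2-fold in either direction. The highest room-air ventricle was library 4, the one with the lowest length slope of its group. Nmrk1 had 5.22 to 7.73 CPM in hyperoxic ventricles and 5.35 to 8.16 CPM in room-air ventricles.

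The remaining members overlapped between the ventricular groups. Naprt had 8.34 to 13.9 CPM after hyperoxia and 11.8 to 21.7 CPM in room air, with a difference of -0.37 (95% interval -0.73 to -0.0019, edgeR adjusted p = 0.16). Nmnat1, Nmnat3, Sirt1 and Sirt3 had differences of 0.17, 0.27, 0.15 and 0.17, and Cd38 one of -0.08 (95% interval -0.27 to 0.11), and none passed.

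The study was built to set the atrial against the ventricular response to hyperoxia, and the difference of the responses (atrium minus ventricle) was tested directly. It passed for Nmrk2, Parp1 and Cd38, 3 of 10 members, where 36.5% of all tested genes passed (17.0% higher in the atrium and 19.5% lower). The response of Nmrk2 was higher in the atrium by 7.13 (SE 0.88, 95% interval 5.28 to 8.99, edgeR adjusted p = 1.7e-05), the largest value among the 16598 genes. It passed under all 34 alternatives, with values of 5.70 to 7.76. The responses of Parp1 were opposite in sign, -0.22 in the atrium and 0.35 in the ventricle, and differed by -0.57 (SE 0.11, edgeR adjusted p = 0.00043), passing under all 34 alternatives. That of Cd38 was higher in the atrium by 0.48 (SE 0.13, edgeR adjusted p = 0.0081).

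In this fit, which held no block for replicate number, the other 7 responses were not shown to differ between the chambers. Nampt, called in the ventricle and not in the atrium, differed by -0.18 (95% interval -0.48 to 0.13). Nmnat3 and Sirt3, called in the atrium and not in the ventricle, differed by 0.45 (95% interval 0.03 to 0.88, edgeR adjusted p = 0.085) and 0.28 (95% interval -0.01 to 0.57, edgeR adjusted p = 0.12). Naprt differed by 0.50 (95% interval -0.01 to 1.02), and Nmrk1, Nmnat1 and Sirt1 by -0.08, 0.04 and -0.02. Nmnat3 passed in 9 of the 34 alternatives (0.14 to 0.65 over all), among them those without hyperoxic atrium 1, hyperoxic ventricle 6 or room-air atrium 4. With replicate number as a block within an oxygen level Nmnat3 and Naprt passed, and with a block across all groups Sirt3 passed as well. The labels do not say whether equal numbers are the same mouse.

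**Figure D3:**
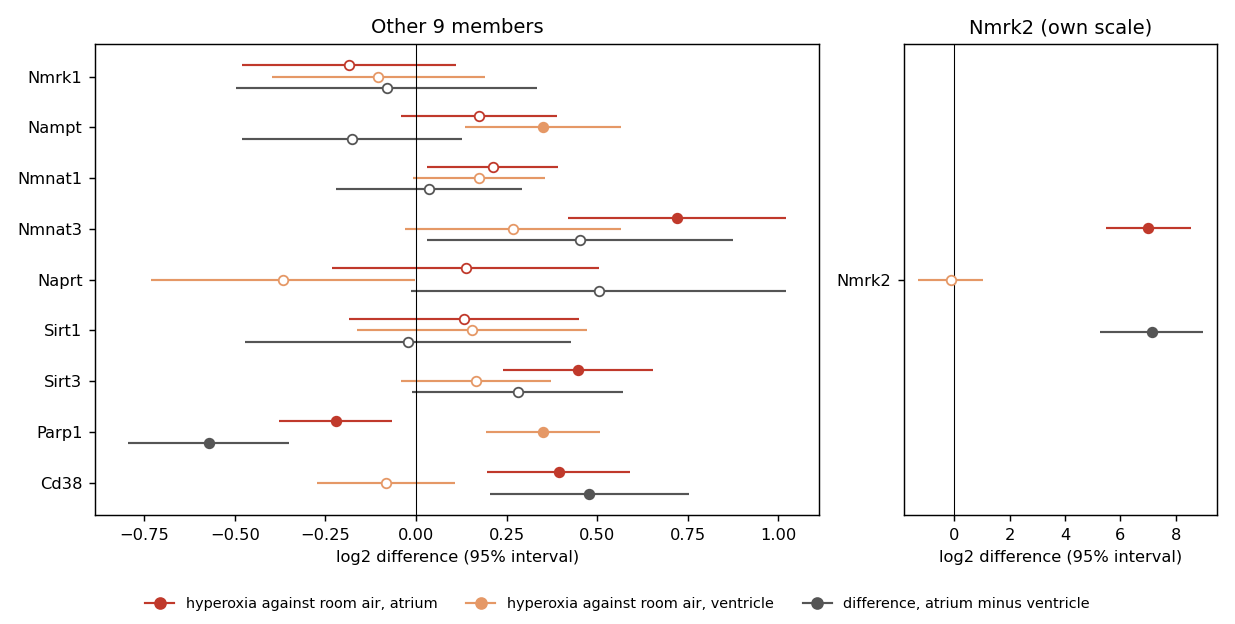
Log2 differences of the 10 members with 95% intervals from the edgeR fit over 20 libraries. Filled points passed and open points did not. Nmrk2 has its own scale, where the atrial response (7.001) and the difference (7.13) stand far from the ventricular response (-0.13), while Parp1 lies on opposite sides of 0 in the chambers.

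Between the chambers in room air, the members were mostly lower in the atrium. Of 10 members, 7 were lower (Nmrk1, Nmrk2, Nmnat1, Nmnat3, Naprt, Sirt3 and Cd38), Parp1 was higher, and Nampt and Sirt1 did not pass. Of all tested genes 55.0% passed, 26.3% lower and 28.7% higher. Nmrk2 averaged 6.83 ± 4.51 CPM in room-air atria and 167 ± 114 CPM in room-air ventricles, a difference of -4.61 (SE 0.66, edgeR adjusted p = 1.2e-05). Cd38 averaged 8.42 ± 0.949 CPM in room-air atria and 35.7 ± 2.11 CPM in room-air ventricles, a difference of -2.08 (SE 0.10, edgeR adjusted p = 1.2e-13) with no overlap.

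The other 5 lower members differed by less. Naprt stood at -0.89 (SE 0.18), Nmnat3 at -0.68 (SE 0.15), Sirt3 at -0.51 (SE 0.10), Nmrk1 at -0.50 (SE 0.14) and Nmnat1 at -0.50 (SE 0.09). The ranges of Nmrk1 overlapped between the chambers and those of the other 4 did not. Parp1 was higher in room-air atria by 0.19 (SE 0.08, edgeR adjusted p = 0.036), a call lost in 14 of 35 alternatives (0.09 to 0.21 over all), among them those without hyperoxic ventricle 5, room-air atrium 1, 2 or 3, or room-air ventricle 2, 4 or 5.

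After hyperoxia the chambers differed in 5 of 10 members, 1 higher and 4 lower in the atrium, where 48.8% of all tested genes passed (25.2% higher and 23.6% lower). Nmrk2 was now the higher one, at 873 ± 314 CPM in hyperoxic atria and 152 ± 94.3 CPM in hyperoxic ventricles, a difference of 2.52 (SE 0.59, edgeR adjusted p = 0.0017). The lowest hyperoxic atrium, 526 CPM, was above the highest ventricle of either group, 321 CPM. Cd38 remained lower in the atrium at -1.60 (SE 0.10), as did Nmrk1 at -0.58 (SE 0.14) and Nmnat1 at -0.46 (SE 0.09). Where only the Y-rich libraries (Y-linked reads above Xist) were kept, the hyperoxic groups held only atrium 2 and ventricles 2 and 6. In that fit Nmrk2 stood at 3.14, Nmrk1 at -0.18 and Nmnat1 at -0.21. With atrium 2 alone in its group, only the sizes of these differences are given. Parp1 was lower in hyperoxic atria, with a log2 difference of -0.38 (SE 0.08, edgeR adjusted p = 0.00023), the opposite side to room air. Nmnat3, Naprt and Sirt3, lower in room-air atria, had differences of -0.22, -0.39 and -0.23 after hyperoxia that did not pass.

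**Figure D4:**
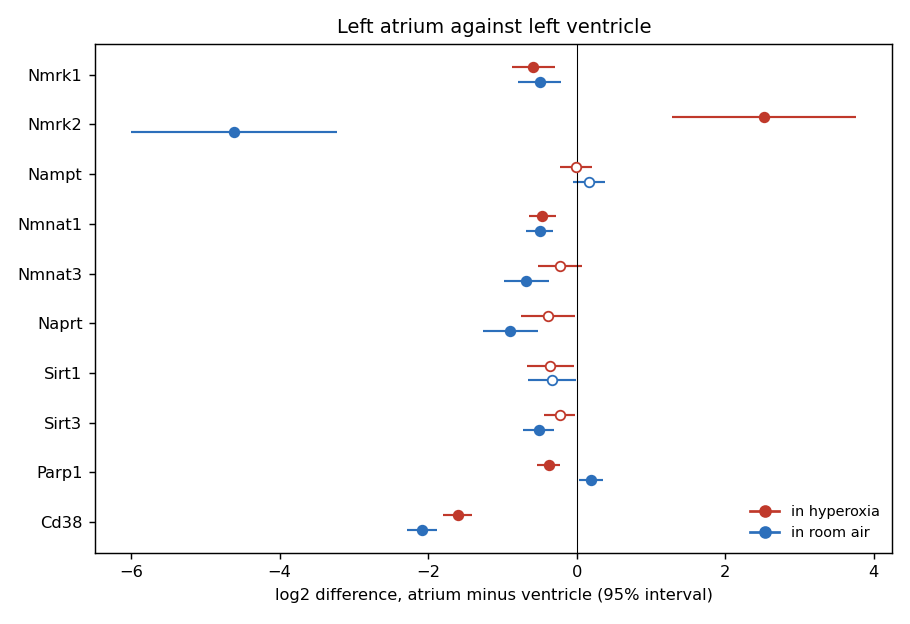
Log2 differences between left atrium and left ventricle for the 10 members, with 95% intervals, after hyperoxia and in room air. Filled points passed. Nmrk2 lies at 2.52 after hyperoxia and -4.61 in room air, and Cd38 lies below -1.5 in both.

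The order of the members by level per kilobase also set hyperoxic and room-air atria apart. Nmrk2 came first in hyperoxic atria (471 ± 169, against 13.5 ± 1.47 for Parp1), in hyperoxic ventricles (82.0 ± 50.9, against 17.5 ± 1.33) and in room-air ventricles (89.9 ± 61.6, against 13.7 ± 0.431), each time with no overlap with Parp1, the next gene. In room-air atria Parp1 came first (15.7 ± 0.473), then Nampt (8.17 ± 1.34), and Nmrk2 (3.68 ± 2.43) was at rank 5, within a run from Nmnat1 and Sirt3 to Naprt and Sirt1 in which each gene overlapped the next. Nmrk1 was last in all 4 groups, between 1.17 and 1.88 on average. Cd38 was at rank 4 in hyperoxic ventricles (8.65 ± 0.808) and 3 in room-air ventricles (9.17 ± 0.544), and at rank 8 in the atria of both gases. With the longest transcript in place of all exons, Nmrk2, Parp1 and Nmrk1 kept their places in all groups except that Nmrk2 was at rank 7 in room-air atria, and Sirt3 was at rank 3 in every group.

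Nmrk2 was also the most variable member. Its coefficient of variation within a group was 35.9% in hyperoxic atria, 66.1% in room-air atria, 62.0% in hyperoxic ventricles and 68.6% in room-air ventricles. For the other 9 members it ran from 3.02% (Parp1 in room-air atria) to 26.4% (Naprt in room-air ventricles). Pearson correlations of log2 CPM over the 20 libraries, which share their depth scaling and the same 4 groups, were highest between Nmnat3 and Sirt3 (0.91), and that of their deviations from group means was 0.66. Deviations of Nmrk2 went with those of Sirt3 (0.62) and Nmnat1 (0.61) and against those of Sirt1 (-0.60). The 3 libraries of low length slope held the highest Nmrk2 and the lowest Sirt1 of their groups. These were hyperoxic atria 2 and 4 and room-air ventricle 4. The part of the slope in these correlations was not tested.

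Among 10941 genes with a mean of at least 5 CPM, those closest to Nmrk2 across the 20 libraries were Tnfrsf12a, the receptor of the cytokine TWEAK (r = 0.967), Gpatch4, a G-patch domain gene (r = 0.966), and Pno1, a ribosome assembly factor (r = 0.965). With group means removed these correlations were 0.66, 0.81 and 0.74, and the part of the length slope in them was not tested. Closest to Parp1 were Kif1c, Fasn and Abtb2 (r = 0.90 to 0.91), closest to Sirt3 were Ciao3, Coq5 and Idh3b (0.94 to 0.95), and closest to Nmnat3 were Ciao3, Idh3b and Eif2b1 (0.92 to 0.94). For Cd38, Slc25a34, Ifi203 and Ccnd1 all reached 0.99, and 0.22, 0.60 and 0.05 with group means removed, so most of that likeness lay between the groups.

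Of 52 other genes of NAD metabolism, 43 were measured well enough to test. In hyperoxic against room-air atria 8 were higher and 6 lower, and 29 did not pass, where 43.9% of all tested genes passed. The median log2 difference of the 43 was 0.03. The 12 atrial calls followed through the alternatives were all lost with Y-linked reads and length slope together as covariates. Over all genes 2739 passed in the atrium in that fit, and 7291 without covariates. In the ventricles 2 were higher and 2 lower, with a median of -0.02, and 39 did not pass, where 10.9% of all tested genes passed. Most enzymes of the kynurenine route from tryptophan (7 of 9) were too low to test, and Afmid and Qprt, the measured pair, did not pass in either chamber.

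Of the other salvage genes all 5 tested passed in the atrium, 4 higher and 1 lower, beside the 43.9% of all tested genes. Nmnat2, the form of Nmnat known from neurons, had 3.23, 1.67, 1.80, 1.12 and 2.42 CPM in hyperoxic atria 1 to 5 and 7.37, 5.67, 7.55, 5.46 and 6.93 CPM in room-air atria 1 to 5. It was lower in every hyperoxic atrium, by a log2 difference of -1.68 (SE 0.27, edgeR adjusted p = 3.4e-05), the opposite direction to Nmnat3. With Y-linked reads and length slope together as covariates Nmnat2 did not pass (edgeR adjusted p = 0.061). Nt5e, the surface nucleotidase that makes nucleosides, rose by 0.39 in the atrium and 0.42 in the ventricle. With the Y-linked reads as a covariate its atrial difference was -0.0564, and its ventricular call was lost in 11 of 34 alternatives, among them those without hyperoxic ventricle 4 or 5 or room-air ventricle 1, 2 or 4. Pnp, which splits nicotinamide riboside, rose by 0.49 in the atrium, with overlapping ranges and its highest values in hyperoxic atria 2 and 4, and its counts are uncertain because the copy Pnp2 lies within its annotated span. Its call was lost in 7 of 34 alternatives, among them those without hyperoxic atrium 2, hyperoxic atrium 4 or room-air atrium 3, and its lowest value was 0.08. Nadsyn1, which completes the nicotinic acid route, and Slc12a8, reported in mice as a transporter of nicotinamide mononucleotide, rose by 0.30 and 0.41. Neither atrial call was followed through the alternatives.

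Enzymes that clear nicotinamide moved differently in the chambers. Aox1, an oxidase of methylated nicotinamide, fell to 12.9 ± 2.89 CPM in hyperoxic atria, against 21.0 ± 1.67 CPM in room-air atria. The log2 difference was -0.71 (SE 0.19, edgeR adjusted p = 0.0041). With Y-linked reads and length slope together as covariates this atrial call was lost (edgeR adjusted p = 0.31). Nnmt, the nicotinamide methyltransferase, averaged 7.72 ± 0.770 CPM after hyperoxia and 14.98 ± 4.36 CPM in room air in the ventricles and fell (log2 difference -0.95, SE 0.20, edgeR adjusted p = 0.0055). All 5 hyperoxic ventricles, at 6.76 to 8.67 CPM, were below all room-air ventricles, at 10.4 to 21.7 CPM. The ventricular call of Nnmt was lost in 3 of 34 alternatives (-1.06 to -0.56 over all). Among them were Y-linked reads as a covariate and ventricular Myl7 as a covariate. In the atrium Nnmt stood at 0.17 and did not pass, and the responses differed by 1.12 (SE 0.27, edgeR adjusted p = 0.0034). Once the length slope entered the model, the difference between the responses was 0.24 for Nnmt (edgeR adjusted p = 0.45) and -0.33 for Aox1 (edgeR adjusted p = 0.44), and neither passed.

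Among the other sirtuins, Sirt5, the mitochondrial desuccinylase, stood at 18.6, 26.4, 19.2, 31.5 and 17.9 CPM in hyperoxic atria 1 to 5 and at 13.1, 12.1, 11.6, 13.6 and 13.1 CPM in room-air atria 1 to 5. It rose by 0.84 (SE 0.15, edgeR adjusted p = 0.00015), with no overlap and the highest values in libraries 2 and 4, and its response differed from that of the ventricle by 1.09 (SE 0.22, edgeR adjusted p = 0.00072). Once the length slope entered the model, that difference was 0.37 and did not pass (edgeR adjusted p = 0.080). The atrial call of Sirt5 was lost with Y-linked reads and length slope together as covariates (edgeR adjusted p = 0.20). Sirt6, a chromatin sirtuin, fell by 0.32 in the atrium, and the other 3 did not pass there. The call of Sirt6 was lost in 14 of 34 alternatives, among them those without hyperoxic atrium 2 or 4, hyperoxic ventricle 5 or room-air atrium 1 or 4. None of the 5 sirtuins passed in the ventricle.

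Of 14 other PARP genes, Parp6 rose by 0.33 and Tiparp, a target of the aryl hydrocarbon receptor, fell by 0.45 in the atrium, and none passed in the ventricle. Both atrial calls were lost with the length slope as a covariate, alone or beside Y-linked reads. Of 6 genes that remove ADP-ribose, Adprhl2, which cleaves it from serine, rose by 0.42 in the atrium and fell by 0.41 in the ventricle, a difference of 0.83 (SE 0.17, edgeR adjusted p = 0.0011). Its atrial call was lost in 3 of 34 alternatives, among them the length slope as a covariate and the fit without the 3 libraries of low slope. Its ventricular call was lost in 13 of 34 alternatives (-0.46 to -0.12 over all), among them those without hyperoxic ventricle 2, 4, 5 or 6 or room-air ventricle 1, 2 or 4, and the difference stood at 0.48 with the length slope as a covariate (edgeR adjusted p = 0.052). Parg, which breaks down the chains Parp1 makes, rose by 0.43 in the ventricle (SE 0.11, edgeR adjusted p = 0.016), where Parp1 was also higher, and stood at -0.07 in the atrium without passing. The ventricular call was lost in 4 of 34 alternatives. These were Y-linked reads, Y-linked reads with length slope, or ventricular Myl7 as covariates, and the fit without hyperoxic ventricle 5. Of 8 genes of NADP and the mitochondrial NAD pool, the kinase Nadk2 fell by 0.37, the mitochondrial NAD carrier Slc25a51 fell by 0.19, and the epimerase Naxe rose by 0.35 in the atrium. Nadk2 was lost in 4 of 34 alternatives, among them the length slope as a covariate and the fit without the 3 libraries of low slope. Slc25a51 was lost in 9 of 34 alternatives, among them those without hyperoxic atrium 3 or hyperoxic ventricle 5, and stood at -0.12 without hyperoxic ventricle 5. Naxe did not keep its call in 11, among them those without hyperoxic atrium 2 or 4 or room-air atrium 1, 2, 3 or 5, and stood at 0.23 without hyperoxic atrium 4. None of the 8 passed in the ventricle. Bst1, the other measured NAD glycohydrolase, did not pass with hyperoxia in either chamber.

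**Figure D5:**
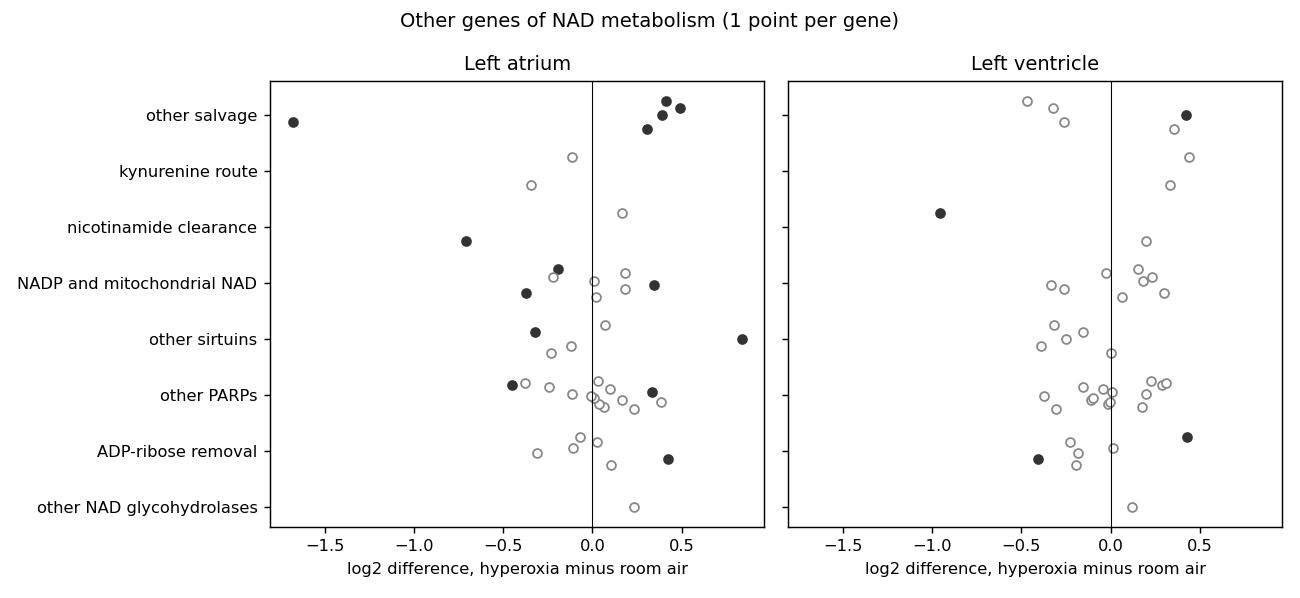
Log2 differences between hyperoxia and room air for 43 other genes of NAD metabolism, by list, with 1 point per gene. Filled points passed. In the left atrium 14 passed, with Nmnat2 (-1.68) farthest from 0, and in the left ventricle 4 passed, with Nnmt (-0.95) farthest from 0.

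Between the chambers, 13 of the 43 were higher and 9 lower in the atrium after hyperoxia, and 12 were higher and 13 lower in room air, where 48.8% and 55.0% of all tested genes passed. Aox1 was higher in the atrium by 1.94 after hyperoxia and 2.85 in room air, Slc12a8 by 2.27 and 1.39, and Bst1 by 1.78 and 1.67. Macrod1, a hydrolase of ADP-ribose, was lower in the atrium, at -1.97 after hyperoxia and -1.84 in room air, as was the interferon-induced PARP gene Parp14, at -1.204 and -1.59. Nnt, the mitochondrial transhydrogenase that carries a deletion in C57BL/6J mice, had 159 ± 15.9 CPM in hyperoxic atria, 158 ± 10.9 CPM in room-air atria, 349 ± 28.2 CPM in hyperoxic ventricles and 308 ± 17.7 CPM in room-air ventricles. It did not pass with hyperoxia in either chamber, and counts per gene do not show which exons the reads came from.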

How the data were processed

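The members and gene lists were chosen with earlier results of these data known. The authors deposited raw counts of reads per gene symbol for each library. The submitters' processing notes name the build GRCm38.p6 and, with no order, Salmon 1.3.0, Subread 2.0.1 with featureCounts, STAR 2.7.6a and fastp 0.20.1. The annotation release and strand setting are not given in the sources used here. The labels name a stranded mRNA kit, and for extraction a Direct-zol kit in one place and an RNeasy kit in another. No row lacked a gene name.

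The tests used edgeR 4.0.16 in R 4.3.3. The filter filterByExpr, given the 4 groups, left 16598 genes. After TMM scaling, all 20 libraries entered a robust quasi-likelihood fit in which each group had its own coefficient (common BCV 0.183). SE is the log2 difference over the square root of F, and 95% intervals use the t distribution with the degrees of freedom of the fit. The p-values measure the spread between the mice of a group. CPM divide counts by the TMM-scaled library size. Within groups, pairs of libraries differed by a chi-square of at least 13.3 for each degree of freedom, so none was a copy of another. The procedure was tested on simulated data with known changes. The simulated libraries held no length slope and no imbalance of Y-linked reads, so that test does not speak to either. Alternatives were limma 3.58.1 (voom) and DESeq2 1.42.0, other scalings, filters and covariates, and each library left out.

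All 10 members were named in each comparison, with up to 3 passing genes of smallest p from each of the other NAD lists. Nadsyn1 and Slc12a8 in the atrium, and genes given as not passing, were named after their values were seen. Genes of like pattern were the 3 with the highest Pearson r per member, leaving out predicted genes, pseudogenes, Xist and Y-linked genes. Positions, exon lengths and overlaps came from GENCODE vM21 (GRCm38), in which 96.3% of the symbols were found, and promoter sequences from RefSeq.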

Additional observations from a re-analysis of the deposited data

Results flagged for a closer look

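A library stood far from the other 4 of its group in 12 of 144 groups checked, where chance alone gives about 5%. Among the members, Nampt at 53.0 CPM and Sirt1 at 20.5 CPM were both highest in room-air atrium 5. Nmnat1 was highest in hyperoxic ventricle 4 at 24.2 CPM, Sirt3 in hyperoxic ventricle 6 at 48.7 CPM, and Cd38 was lowest in room-air atrium 4 at 6.75 CPM. Among the other NAD genes, hyperoxic ventricle 4 was lowest for Adprh (51.0 CPM) and Adprhl2 (14.9 CPM) and highest for Parp14 (24.2 CPM). Room-air atrium 4 was highest for Naxe (69.4 CPM) and lowest for Slc25a51 (71.0 CPM). Nudt13 was lowest in hyperoxic ventricle 5 (15.4 CPM) and Sirt5 highest in room-air ventricle 4 (47.4 CPM).

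The response to hyperoxia differed between the chambers (edgeR, atrium minus ventricle, log2 scale) for 3 members and 15 other named NAD genes. The members were Nmrk2 at 7.13, Parp1 at -0.57 and Cd38 at 0.48. Of the salvage genes, Slc12a8 stood at 0.88, Pnp at 0.82 and Nmnat2 at -1.42. Of the clearing enzymes, Nnmt stood at 1.12 and Aox1 at -0.91. Naxe stood at 0.68, Nadk2 at -0.67 and Slc25a51 at -0.34. Sirt5 stood at 1.09 and Sirt7 at 0.38, at the edge of the threshold. Of the PARP genes, Parp10 stood at 0.54, Tiparp at -0.74 and Tnks at -0.69. Adprhl2 stood at 0.83 and Parg at -0.50. With the length slope as a covariate 13 of these 15 other genes no longer passed, the exceptions being Slc25a51 and Parp10, while the 3 members did.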

How the results depend on the processing

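Over all alternatives, 1545 of 1720 member values kept their direction and their side of the threshold, 51 lost it, 71 gained it and 51 changed sign without passing. Nmrk2 passed under all 34 alternatives in the atrium (5.99 to 7.49) and in the difference between chambers (5.70 to 7.76). The number of members passing in the atrium, 5, was 9 with voom, 3 with Y-linked reads in the model, 2 with Y-linked reads and length slope, and 4 to 6 with a library left out. In the ventricle, 2 became 3 with length slope (Nmnat1 and Sirt3 gained, Nampt lost), 1 with no filter, 0 with either Y-linked covariate set, 0 within the Y-rich libraries (Y-linked reads above Xist), 0 with ventricular Myl7 as a covariate, and 1 to 2 with a library left out. For the difference, 3 became 5 with the 1 CPM filter and 3 to 4 with a library left out. Between the chambers after hyperoxia, 5 became 8 with voom, 8 with length slope and 8 without the 3 libraries of low slope. It was 5 to 7 with a library left out. The Y-rich libraries held only hyperoxic atrium 2 in its group, so no count is given for them here. In room air it stayed at 7 to 9. The cause was not tested.

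Sirt1 in the difference, -0.02, reversed to 0.54 with length slope and 0.56 with both covariates, and passed. In the atrium Nt5e reversed to -0.0564 with Y-linked reads and -0.0516 within the Y-rich libraries, Naxe to -0.0063 with length slope and -0.11 with both covariates, and Sirt6 to 0.0014 with both. Atria and ventricles of the same number and oxygen level had correlated deviations of -0.0559 to 0.563 over 9 pairs, not above 0.1 in every pair, and 3 of the 9 were each other's closest match, so numbers were not treated as pairs. With the replicate block the difference gave 5 members within an oxygen level (Nmnat3 and Naprt added) and 6 across groups (Sirt3 as well). Over all genes the atrial median moved with the setting between -0.14 and 0.02. The ventricular count of passing genes was 1813 with all 20 libraries and no covariate. It was lowest, at 37, with Y-linked reads as a covariate and highest, at 3305, without the 3 libraries of low slope. Levels per kilobase moved by more than 1 SD for 32 of 40 values with the longest transcript. The lowest counts of a member were 106 reads for Nmrk2, in a room-air atrium, and 124 reads for Nmrk1.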
